A study of Mus musculus with 6 samples.

Results

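The 10 genes described here encode transcription factors of the primitive streak and of the presomitic mesoderm: *T*, *Mixl1*, *Eomes*, *Lhx1*, *Mesp1*, *Mesp2*, *Msgn1*, *Tbx6*, *Foxc1* and *Foxc2*. They were taken by name, as every row of the deposited transcript tables that carries one of these gene symbols, out of 20631 genes in all. All 10 were found in every sample and all 10 passed the filter on low counts, so that each could be tested along with 15143 genes. Of the 10, 9 have a single RefSeq transcript, and the values of the 2 *Eomes* transcripts were summed. RNA-seq was performed on neuromesodermal progenitors (NMPs), bipotent caudal cells that supply both spinal cord and somites, which were made from mouse embryonic stem cells (ESCs) grown with the growth factor bFGF for 2 days and then with bFGF and the WNT agonist CHIR99021 for 1 day. In all 3 conditions bFGF and CHIR99021 were then withdrawn, and the cells were held for 2 h in a medium free of retinoids with the DMSO vehicle, 25 nM retinoic acid (RA) or 1 µM RA. Each condition had 2 samples, from 2 culture dishes, which the study's methods call technical replicates. The p-values below therefore measure the spread between dishes. The labels give the strain as 129 R1, whereas the methods name C57BL/6 ESCs kept on mouse fibroblast feeders, so that the strain is uncertain.

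As background, cells of the epiblast that enter the primitive streak switch on T-box factors under WNT, FGF and NODAL signals, leave the epithelium and become mesoderm or endoderm. Cells that stay in the caudal epiblast as NMPs hold both *T* and *Sox2*, and those that go on to presomitic mesoderm turn on *Tbx6* and *Msgn1* before the MESP factors set the boundaries of the somites. RA is made by the mesoderm next to these cells, acts through nuclear receptors bound to DNA, and is known to oppose FGF signalling in the caudal part of the embryo.

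Each sample held between 31753556 and 42029348 estimated counts, of which the 10 genes took 0.135% to 0.148%. Among the counts of the 10 genes, *T* accounted for 63.9% to 67.5%. Levels are given as RPKM, in which reads are scaled by the length of the transcript and by the reads of the sample. As a check of the treatment, the RA target *Cyp26a1*, whose enzyme breaks down RA, rose by 1.76 ± 0.051 (SE) on the log2 scale with 25 nM RA and by 2.40 ± 0.050 with 1 µM RA, and the RA receptor gene *Rarb* rose by 4.53 ± 0.19 and 4.89 ± 0.19. For the labelled cell type, the NMP markers were present in DMSO, *Sox2* at 5.20 to 5.21 RPKM and *Nkx1-2* at 38.9 to 39.3 RPKM, whereas the neural marker *Sox1* stayed between 0.180 and 0.245 RPKM in all samples. The pluripotency factor *Pou5f1* was at 432 to 470.5 RPKM throughout. Markers of endoderm and node were also present in DMSO, *Cer1* at 15.4 to 17.3, *Foxa2* at 13.9 to 15.0 and *Sox17* at 6.68 to 6.84 RPKM. *Hhex*, *Foxa1* and *Noto* were lower. Of the 7 markers 6 were tested, and *Shh* was at or under 0.0310 RPKM in all samples.

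Promoter windows were looked at first, since several of the 10 genes moved together. RefSeq windows of GRCm38.p6, the same assembly as the mm10 build of the files, were available for 8 of the 10 genes, all except *Mixl1* and *Foxc2*, and reach from 250 bases before to 50 bases after the start site. Letters were searched on both strands for AGGTCA, the core of a retinoid receptor site, and for its direct repeats with 2 or 5 bases between (DR2 and DR5), which contain that core or a near variant of it. The others were AGGTGTGA for T-box factors, CTTTGAT and CTTTGAA for the TCF/LEF factors that act in WNT signalling, AATCCACA for FOXH1, a partner of NODAL signalling, and TATAAA. Of the 8 windows, 0 held AGGTCA, DR2 or DR5, which were in 16.3%, 0.268% and 0.0974% of 32851 mouse windows. CTTTGAA was in 3 of the 8 (*T*, *Msgn1* and *Mesp1*) and in 5.14% of all windows, and CTTTGAT was in 2 (*Msgn1* and *Mesp1*) and in 3.73% of all. AGGTGTGA was in *Mesp1* alone (1.28% of all windows), AATCCACA in *Mesp2* alone (0.855%) and TATAAA in *Tbx6* alone (13.6%). No test was made of these shares, a match of letters is not a bound site, and no matches in the 8 windows overlapped. Sites outside these windows were not searched, so the lack of a match does not show that a gene lacks a retinoid receptor site. The 250 bases before the start site are shown for *T*, which did not change with RA, and for *Tbx6* and *Mesp2*, which fell, and 30 bases around each match are shown for *Msgn1* and *Mesp1*, with the matches in capitals and each sequence read along its gene's own strand.
T, chr17:8434173-8434422, plus strand: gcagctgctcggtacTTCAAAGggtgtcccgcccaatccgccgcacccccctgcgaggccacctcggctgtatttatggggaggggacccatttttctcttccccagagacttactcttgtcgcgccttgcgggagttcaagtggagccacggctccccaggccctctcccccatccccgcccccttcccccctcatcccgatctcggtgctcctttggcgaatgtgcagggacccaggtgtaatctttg
Tbx6, chr7:126781233-126781482, plus strand: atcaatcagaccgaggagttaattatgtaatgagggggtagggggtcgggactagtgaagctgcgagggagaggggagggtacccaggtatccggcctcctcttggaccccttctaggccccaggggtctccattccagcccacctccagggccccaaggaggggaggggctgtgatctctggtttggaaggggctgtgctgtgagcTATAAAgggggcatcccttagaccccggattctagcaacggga
Mesp2, chr7:79810477-79810726, plus strand: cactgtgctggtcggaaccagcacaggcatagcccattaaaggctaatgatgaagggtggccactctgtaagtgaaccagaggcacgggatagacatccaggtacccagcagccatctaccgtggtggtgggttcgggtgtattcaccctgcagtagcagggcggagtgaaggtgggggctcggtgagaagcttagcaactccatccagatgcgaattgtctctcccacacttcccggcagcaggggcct
Mesp2 with AATCCACA, chr7:79810740-79810769, plus strand: cgaggggtcagAATCCACAcctctgcaaat
Mesp1 with CTTTGAA, chr7:79793645-79793674, minus strand: ccctgctatggTTCAAAGggttcaggccct
Mesp1 with CTTTGAT, chr7:79793603-79793632, minus strand: gctcgagccggCTTTGATatgctgatgaat
Mesp1 with AGGTGTGA, chr7:79793567-79793596, minus strand: aggggcccgctTCACACCTagggctcagga
Msgn1 with CTTTGAT, chr12:11209133-11209162, minus strand: agatgctaattATCAAAGaggggaaagtga
Msgn1 with CTTTGAA, chr12:11209073-11209102, minus strand: cttggttcttcCTTTGAActccctccacca

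In these sequences the *T* match starts 235 bases before the start site and the TATAAA of *Tbx6* 43 bases before it. The AATCCACA of *Mesp2* starts at base 25 of the transcript. The *Mesp1* matches start 73 and 31 bases before the RefSeq start and at base 6 after it. Of the 250 bases before that start, 198 lie in exons of GENCODE transcripts, which begin farther upstream. For *Msgn1*, whose RefSeq transcript in the files starts at the coding sequence, the matches lie 203 and 143 bases before that point.

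In the DMSO samples the 10 genes spanned a wide range of levels. *T* led with a mean of 375 ± 6.98 RPKM (SD, n = 2) and ranked 154th of all genes, followed by *Mesp1* at 48.6 ± 1.10, *Eomes* at 47.7 ± 0.874, *Mixl1* at 36.0 ± 0.869, *Msgn1* at 27.4 ± 0.582 and *Lhx1* at 23.7 ± 0.945 RPKM. *Tbx6* (8.59 ± 0.629 RPKM), *Foxc1* (4.58 ± 0.256 RPKM), *Mesp2* (1.86 ± 0.131 RPKM) and *Foxc2* (0.907 ± 0.0182 RPKM) were lower. *Mesp1* and *Eomes*, next to each other in that order, overlapped between samples, and all other neighbours in the order were apart. This order in RPKM depends on the transcript lengths used. The 2 *Mesp* genes, which lie 17136 bases from each other on chromosome 7, differed in level by 24.5 and 27.9 times in the DMSO samples, and the 2 *Foxc* genes, which are on different chromosomes, by 5.18 and 4.92 times.

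**Figure D1:**
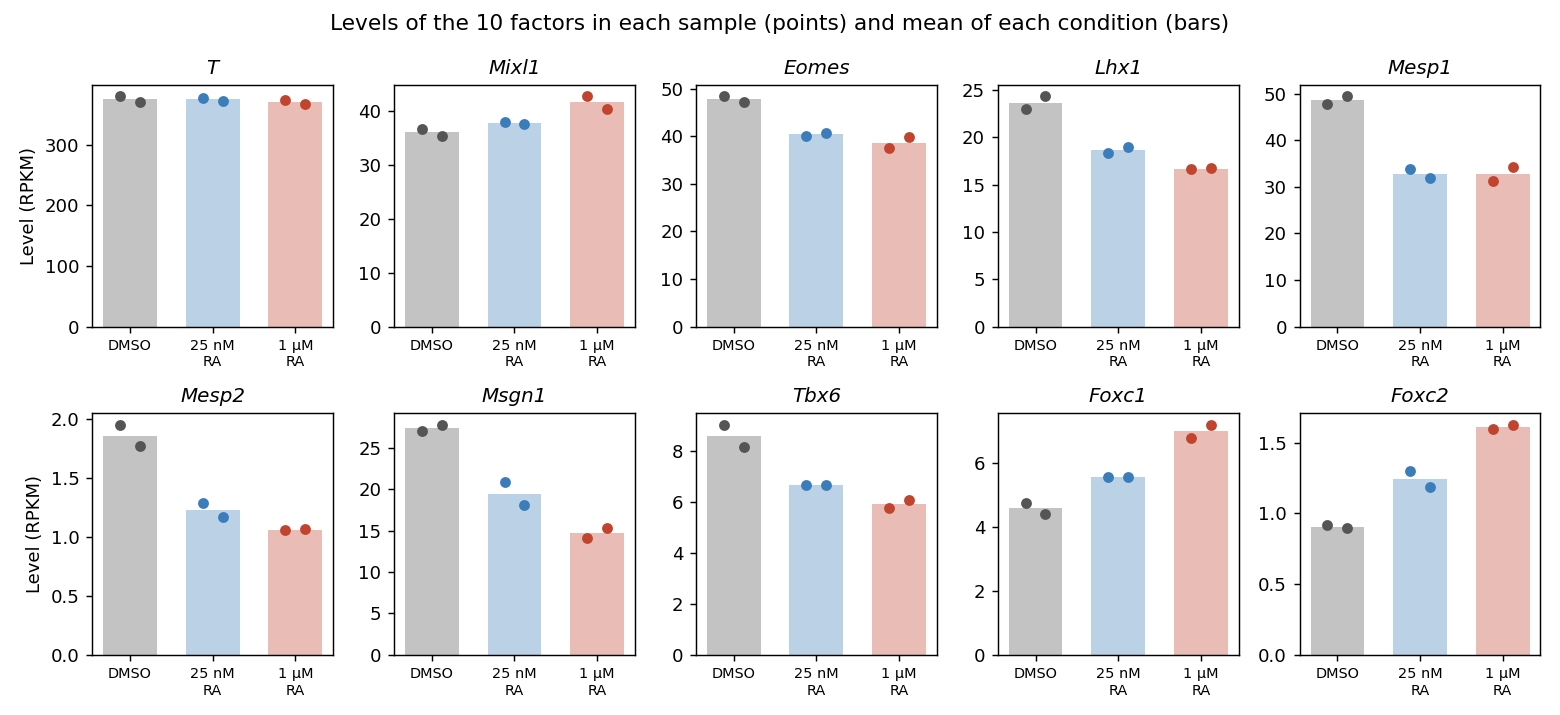
Level in RPKM (vertical axes, each starting at 0) of the 10 factors in the 6 samples, with points for the 2 samples of each condition and bars for their mean. *T* stays near 375 RPKM throughout, *Msgn1* goes down from 27.4 over 19.5 to 14.8 RPKM, and *Foxc1* goes up from 4.58 over 5.57 to 7.004 RPKM.

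After 2 h of RA, 6 of the 10 genes fell at each dose: *Eomes*, *Lhx1*, *Mesp1*, *Mesp2*, *Msgn1* and *Tbx6*. *Foxc1* and *Foxc2* rose at each dose, and *Mixl1* rose at 1 µM RA. *T* was not called in any comparison. The test was edgeR's likelihood ratio test, with p-values adjusted by the Benjamini-Hochberg method over all genes tested and a call at an adjusted p under 0.1. At 25 nM RA, 8 of the 10 genes were called, 2 higher and 6 lower, where 8.05% of all genes tested were called, 4.50% higher and 3.55% lower. At 1 µM RA, 9 of the 10 genes were called, 3 higher and 6 lower, where 19.7% of all genes were called, 8.54% higher and 11.2% lower. The median log2 fold change of the 10 genes was -0.30 with the lower dose and -0.41 with the higher dose, and that of all genes tested was -0.00050 and 0.0013. Both comparisons use the same DMSO samples, so they are not independent of each other. In RNA of whole cultures, fewer cells of a type and less RNA per cell cannot be told apart.

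**Figure D2:**
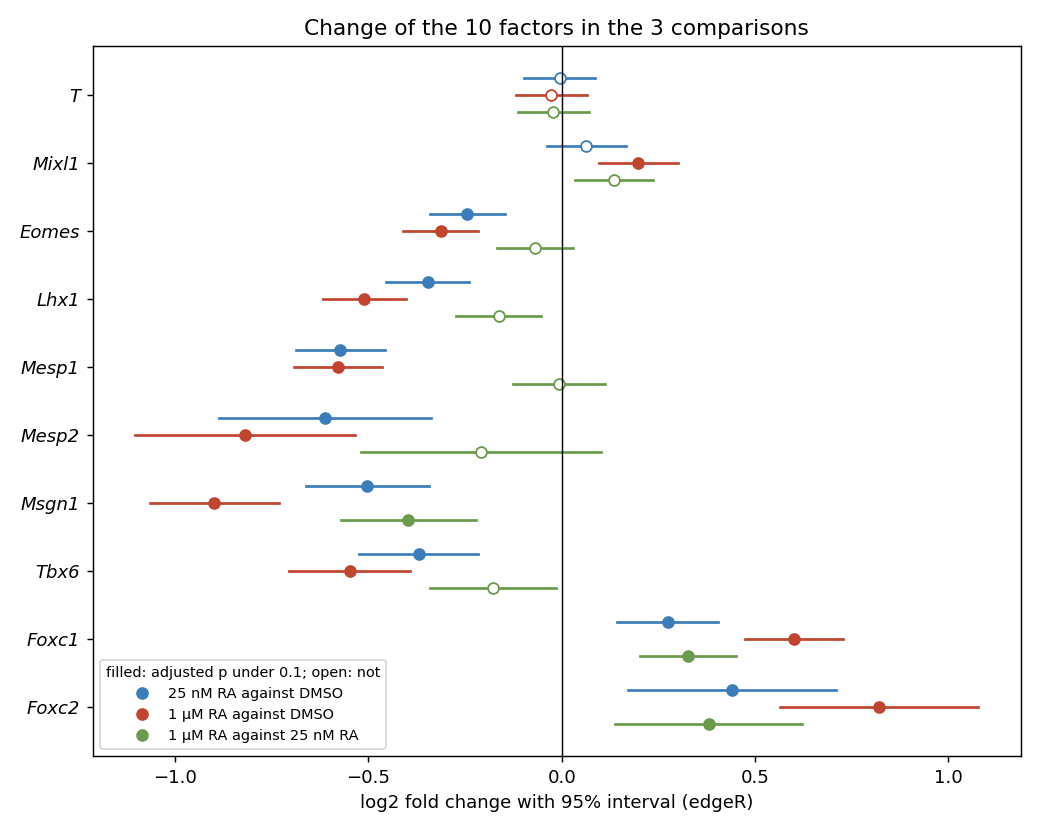
Log2 fold change (horizontal axis) of each factor in the 3 comparisons, with 95% intervals from standard errors computed from the edgeR fit, and filled points for an adjusted p under 0.1. The points of *T* lie near 0 in all comparisons, those of the genes from *Eomes* to *Tbx6* lie to the left against DMSO, and those of *Foxc1* and *Foxc2* to the right.

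*T* (brachyury, NM_009309, chromosome 17 from 8434423 to 8442496, plus strand, 8 exons) is the founding T-box factor and marks the streak, the notochord and NMPs. Its level was 380.1 and 370.3 RPKM in DMSO, 378 and 372 RPKM at 25 nM RA, and 374 and 367 RPKM at 1 µM RA. The samples of the 3 conditions were interleaved. For 25 nM RA its log2 fold change was -0.0050 ± 0.047 (SE), with a 95% interval of -0.097 to 0.087 and an adjusted p of 0.985. For 1 µM RA it was -0.03 ± 0.047, with an interval of -0.12 to 0.065 and an adjusted p of 0.774. It had 29759 to 40054 counts per sample. A fall beyond 0.12 on the log2 scale lay outside both intervals, which rest on the fitted spread between dishes and take it as known.

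*Mixl1* (NM_013729, chromosome 1 from 180693048 to 180697034, minus strand, 2 exons) encodes a paired-type homeodomain factor of the streak that is needed for mesendoderm. Its level was 36.6 and 35.4 RPKM in DMSO, 37.9 and 37.6 RPKM at 25 nM RA, and 42.7 and 40.4 RPKM at 1 µM RA. The samples of each higher dose were all above those of the lower one. It rose with 1 µM RA by 0.20 ± 0.052 on the log2 scale (adjusted p = 0.00166), and the change with 25 nM RA was 0.06 ± 0.052 (adjusted p = 0.675).

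*Eomes* (chromosome 9 from 118478189 to 118486132, plus strand) encodes the T-box factor of the early streak that acts upstream of *Mesp1* and of definitive endoderm. Summed over both transcripts, its level was 48.4 and 47.1 RPKM in DMSO, 40.1 and 40.7 RPKM at 25 nM RA, and 37.5 and 39.7 RPKM at 1 µM RA. Both DMSO samples were above all 4 RA samples, and the samples of 25 nM RA were above those of 1 µM RA. Treatment with 25 nM RA changed *Eomes* by -0.24 ± 0.049 on the log2 scale (adjusted p = 3.62e-05), and 1 µM RA did so by -0.31 ± 0.0495 (adjusted p = 1.11e-08).

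The transcript NM_010136 took 81.1% to 86.8% of the *Eomes* counts and NM_001164789 took the rest. Tested transcript by transcript, NM_010136 had a log2 fold change of -0.19 ± 0.070 at 25 nM RA (adjusted p = 0.15) and of -0.30 ± 0.070 at 1 µM RA (adjusted p = 0.000824). NM_001164789 had -0.55 ± 0.17 (adjusted p = 0.0356) and -0.38 ± 0.17 (adjusted p = 0.193). The transcript that passed the test was thus a different one at each dose, but the fitted changes of both were negative at both doses. Between doses neither was called in the same test (adjusted p = 0.779 for NM_010136 and 0.935 for NM_001164789). The authors' estimation divided the reads that both share. An antisense gene, *Gm33460*, overlaps *Eomes* by 574 bases, and 2.28% of the 50-base words of NM_010136, the length of the reads, also occur in transcripts of other genes.

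*Lhx1* (NM_008498, chromosome 11 from 84519379 to 84525534, minus strand, 5 exons) encodes a LIM-homeodomain factor of the streak, of lateral and intermediate mesoderm and of the node region. Its level was 23.0 and 24.3 RPKM in DMSO, 18.3 and 19.0 RPKM at 25 nM RA, and 16.6 and 16.7 RPKM at 1 µM RA. The samples of the 3 conditions did not overlap and stood in the order of dose. On the log2 scale the change of *Lhx1* came to -0.35 ± 0.055 with 25 nM RA (adjusted p = 1.87e-08) and to -0.51 ± 0.055 with 1 µM RA (adjusted p = 2.73e-18). The non-coding gene *Lhx1os*, which begins 125 bases from *Lhx1*, was not called at either dose.

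*Mesp1* (NM_008588, chromosome 7 from 79792241 to 79793590, minus strand, 2 exons) encodes a basic helix-loop-helix factor of nascent mesoderm that is known for its place at the start of the cardiac lineage. Its level was 47.9 and 49.4 RPKM in DMSO, 33.9 and 31.8 RPKM at 25 nM RA, and 31.3 and 34.2 RPKM at 1 µM RA. The DMSO samples were above all RA samples, and the samples of the 2 doses were interleaved. For *Mesp1* the fit gave a log2 fold change of -0.57 ± 0.059 with 25 nM RA (adjusted p = 2.42e-20) and one of -0.58 ± 0.0585 with 1 µM RA (adjusted p = 5.33e-21), or -32.8% and -33.0%. Of the 10 genes it had the smallest adjusted p at 25 nM RA.

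*Mesp2* (NM_008589, chromosome 7 from 79810727 to 79813431, plus strand, 2 exons) encodes the related factor of the anterior presomitic mesoderm that sets the somite boundary. It was measured with few counts, from 89 to 195 per sample. Its level was 1.96 and 1.77 RPKM in DMSO, 1.29 and 1.17 RPKM at 25 nM RA, and 1.06 and 1.07 RPKM at 1 µM RA. The samples of the 3 conditions did not overlap. Treatment with 25 nM RA changed *Mesp2* by -0.61 ± 0.14 on the log2 scale (adjusted p = 0.000357), and 1 µM RA did so by -0.82 ± 0.15 (adjusted p = 2.86e-07), and the call at 25 nM RA was lost with DESeq2 (adjusted p = 0.145) and in the fit of single transcripts (adjusted p = 0.225).

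*Msgn1* (mesogenin 1, NM_019544, chromosome 12 from 11208382 to 11208948, minus strand, 1 exon) encodes a helix-loop-helix factor that drives presomitic mesoderm out of the progenitor state. Its level was 27.0 and 27.8 RPKM in DMSO, 20.9 and 18.1 RPKM at 25 nM RA, and 14.1 and 15.4 RPKM at 1 µM RA. The samples of the 3 conditions stood apart, in the order of dose. On the log2 scale the change of *Msgn1* came to -0.50 ± 0.081 with 25 nM RA (adjusted p = 3.54e-08) and to -0.90 ± 0.085 with 1 µM RA (adjusted p = 1.57e-24), the largest fall of the 10 genes at 1 µM RA by the fitted value. That fall was by 46.4%, with an interval of -1.07 to -0.73 on the log2 scale that overlaps the interval of -1.10 to -0.54 of *Mesp2*.

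*Tbx6* (NM_011538, chromosome 7 from 126781483 to 126785548, plus strand, 8 exons) encodes the T-box factor of presomitic mesoderm whose loss is known to turn paraxial mesoderm into neural tissue. Its level was 9.04 and 8.15 RPKM in DMSO, 6.68 and 6.68 RPKM at 25 nM RA, and 5.78 and 6.06 RPKM at 1 µM RA. The samples of the 3 conditions did not overlap. For *Tbx6* the fit gave a log2 fold change of -0.37 ± 0.078 with 25 nM RA (adjusted p = 8.49e-05) and one of -0.55 ± 0.080 with 1 µM RA (adjusted p = 2.27e-10).

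*Foxc1* (NM_008592, chromosome 13 from 31806646 to 31810635, plus strand, 1 exon) and *Foxc2* (NM_013519, chromosome 8 from 121116171 to 121118894, plus strand, 1 exon) encode forkhead factors that act together in paraxial mesoderm and in somite formation. The level of *Foxc1* was 4.76 and 4.40 RPKM in DMSO, 5.56 and 5.58 RPKM at 25 nM RA, and 6.80 and 7.21 RPKM at 1 µM RA. The level of *Foxc2* was 0.920 and 0.894 RPKM in DMSO, 1.30 and 1.18 RPKM at 25 nM RA, and 1.60 and 1.63 RPKM at 1 µM RA. Both genes went up in the order of dose with no overlap between conditions.

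*Foxc1* rose by 0.27 ± 0.0665 on the log2 scale with 25 nM RA (adjusted p = 0.00111) and by 0.60 ± 0.065 with 1 µM RA (adjusted p = 1.11e-18). *Foxc2* rose by 0.44 ± 0.14 with 25 nM RA (adjusted p = 0.0235) and by 0.82 ± 0.13 with 1 µM RA (adjusted p = 7.23e-09). *Foxc2* had 103 to 195 counts per sample, and its call at 25 nM RA was lost with DESeq2 (adjusted p = 0.452), in the fit of single transcripts (adjusted p = 0.488), without DMSO replicate 1 (adjusted p = 0.141), without DMSO replicate 2 (adjusted p = 0.145) and without 25 nM RA replicate 1 (adjusted p = 0.231). Between *Foxc1* and *Foxc2*, 4 of 2676 words of 50 bases of the *Foxc2* transcript are shared, so that few reads could be assigned to the wrong gene of the pair. A gene model of GENCODE on the same strand, *Gm20388*, spans the whole of *Foxc2*.

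Setting 1 µM RA directly against 25 nM RA asks whether a higher dose went further. The DMSO samples enter it through the shared estimate of the spread, the filter on low counts and the normalization. Of the 10 genes, 3 were called, 2 higher (*Foxc1* and *Foxc2*) and 1 lower (*Msgn1*), where 3.41% of all genes tested were called, 0.792% higher and 2.62% lower. The log2 fold change from the lower to the higher dose was -0.40 ± 0.089 for *Msgn1* (adjusted p = 0.00134), 0.33 ± 0.064 for *Foxc1* (adjusted p = 9.27e-05) and 0.38 ± 0.12 for *Foxc2* (adjusted p = 0.0708). The *Foxc2* call was lost under 11 of 17 alternatives, among them edgeR's quasi-likelihood test (adjusted p = 0.149), DESeq2 (adjusted p = 0.612), and the omission of any of the 4 RA samples (adjusted p from 0.203 to 0.443). The *Msgn1* call was lost without 25 nM RA replicate 1 (log2 fold change -0.31, adjusted p = 0.188), which leaves 1 of the 10 genes called. With limma on log2(RPKM + 1), 0 of the 10 genes were called, 6 having an unadjusted p under 0.05, against 2 called with edgeR's quasi-likelihood test and 2 with DESeq2.

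The other 7 genes did not pass the test between doses, and their intervals differ in what they leave possible. For *Mesp1* the log2 fold change was -0.0059, with a 95% interval of -0.12 to 0.11, and for *T* it was -0.02, with an interval of -0.11 to 0.070. For *Eomes* it was -0.07, with an interval of -0.17 to 0.029. The intervals of *Lhx1* (-0.27 to -0.053), *Tbx6* (-0.34 to -0.015) and *Mixl1* (0.034 to 0.24) did not include 0, but their adjusted p-values were 0.107, 0.329 and 0.177. *Mesp2*, with the fewest counts at 1 µM RA, had the widest interval, from -0.52 to 0.10. Further calls appeared under other settings, *Lhx1* with total counts in place of TMM (adjusted p = 0.0604) or with a filter at 50 counts (adjusted p = 0.0925), and *Mixl1* without 1 µM RA replicate 2 (adjusted p = 0.0605).

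Since some genes fell while others rose, the order of levels within a sample changed with RA. In the DMSO samples *Mixl1* was below *Eomes*, with a ratio of RPKM of 0.757 and 0.751, the ratio was 0.945 and 0.923 at 25 nM RA, and it was 1.14 and 1.02 at 1 µM RA. Relative to *Mesp1*, *Mixl1* went from 0.765 and 0.716 in DMSO to 1.12 and 1.18 at 25 nM RA and to 1.37 and 1.18 at 1 µM RA. With the transcript lengths used for RPKM, *Mixl1* was thus below both genes in each DMSO sample and above both in each sample of 1 µM RA.

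The ratio of *Foxc1* to *Tbx6* also rose with RA. Its position against 1 rests on a length of 3990 bases for *Foxc1*, for which GENCODE gives 5844 exonic bases. The ratio of RPKM was 0.527 and 0.540 in DMSO. With 25 nM RA it was 0.831 and 0.836, and with 1 µM RA it was 1.18 and 1.19. The samples of each condition were close to each other relative to the distance between conditions. Within the 2 gene pairs of one family the ratio moved less: *Mesp1* was 24.5 to 27.9 times *Mesp2* in DMSO, 26.3 to 27.1 times at 25 nM RA and 29.5 to 32.0 times at 1 µM RA, and *Foxc1* was 4.92 to 5.18 times *Foxc2* in DMSO, 4.28 to 4.71 times at 25 nM RA and 4.26 to 4.43 times at 1 µM RA. These ratios are a description, as no test was made of them.

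**Figure D3:**
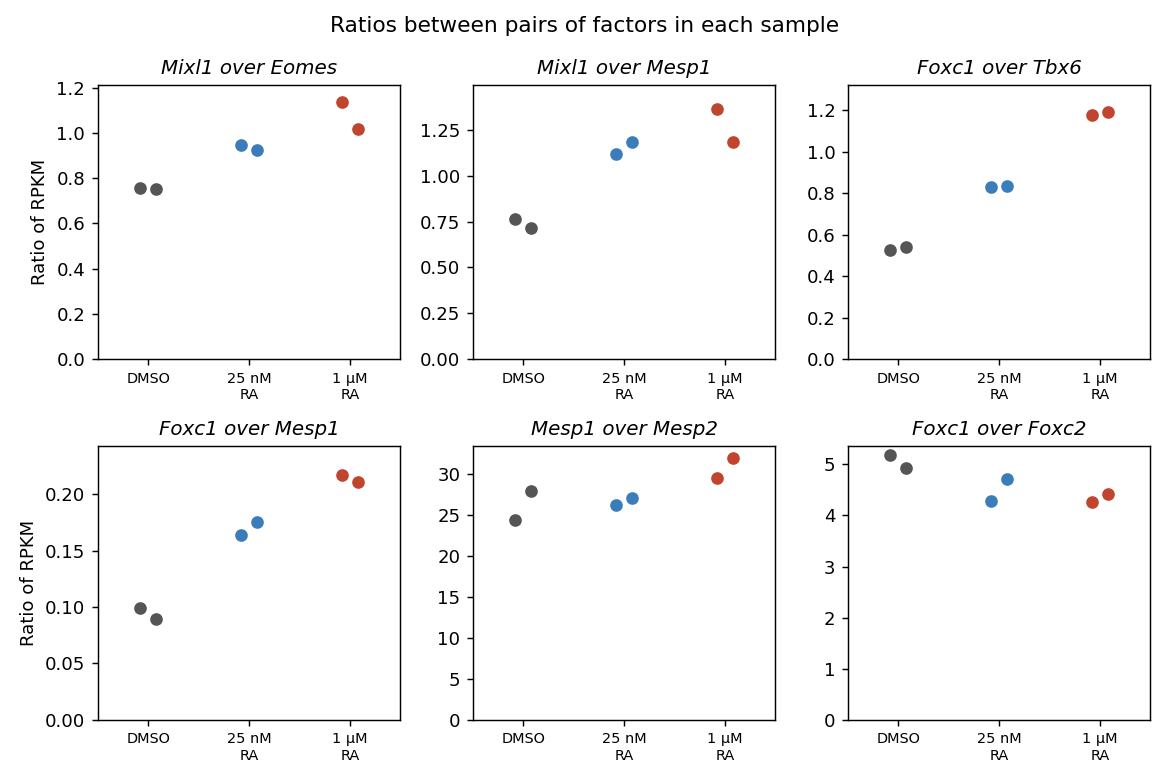
Ratio of the RPKM of a first to a second factor (vertical axes, each starting at 0) in the 2 samples of each condition. *Mixl1* over *Eomes* and *Foxc1* over *Tbx6* pass from under 1 in DMSO to over 1 at 1 µM RA, whereas *Mesp1* over *Mesp2* stays between 24.5 and 32.0.

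Genes that act with the 10 factors were followed in lists, whose counts are to be set beside the shares of all genes tested. These shares were 8.05% at 25 nM RA, 4.50% higher and 3.55% lower, and 19.7% at 1 µM RA, 8.54% higher and 11.2% lower. Of 22 further genes of the streak and nascent mesoderm, 21 were tested. At 25 nM RA 8 rose and 9 fell, and at 1 µM RA 7 rose and 10 fell, with a median log2 fold change of -0.10 and -0.12. *Cdx1*, a caudal homeobox gene, rose from 6.03 and 6.69 RPKM in DMSO to 23.7 and 19.9 RPKM at 25 nM RA (log2 fold change 1.77 ± 0.085, adjusted p = 5.85e-95). *Fgf4*, an FGF ligand of the streak, rose by 1.49 ± 0.065 at 25 nM RA and by 2.05 ± 0.063 at 1 µM RA, and *Wnt8a*, a WNT ligand of the streak, by 1.22 ± 0.057 and 1.26 ± 0.057 on the log2 scale. *Fst*, which encodes the activin antagonist follistatin, fell from 111 and 104 RPKM to 73.5 and 73.5 RPKM at 25 nM RA and to 65.6 and 63.0 RPKM at 1 µM RA. The homeobox gene *Evx1* fell by 0.70 and 0.86 on the log2 scale and the zinc finger gene *Zic2* by 0.54 and 0.77 (adjusted p of 1.43e-17 or less for each). With limma on either pseudocount the list had 10 genes called at 25 nM RA, 4 higher and 6 lower, and by single transcripts it had 11, 4 higher and 7 lower.

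Of 24 genes of the presomitic mesoderm and somite, 19 were tested. At 25 nM RA 2 rose and 5 fell, and at 1 µM RA 4 rose and 7 fell, with a median log2 fold change of 0.077 and -0.14. With limma on log2(RPKM + 1) the list had 4 genes called at 25 nM RA, 1 higher and 3 lower. Among Notch pathway genes of the segmentation clock, *Lfng*, a glycosyltransferase that modifies Notch, fell from 15.1 and 15.7 RPKM in DMSO to 10.4 and 10.1 RPKM at 25 nM RA and 8.71 and 9.98 RPKM at 1 µM RA. *Dll3* fell by 0.40 and 0.47 and the receptor *Notch1* by 0.29 and 0.50 on the log2 scale, whereas the ligand *Dll1*, at 17.5 to 18.5 RPKM in all samples, had log2 fold changes of -0.02 and 0.03 and was not called. *Rspo3*, a secreted enhancer of WNT signalling, fell by 0.48 and 0.58 and *Cited1* by 0.34 and 0.41 on the log2 scale. *Hes7*, at a mean of 1.51 RPKM in DMSO, fell by 1.11 at 1 µM RA (adjusted p = 7.25e-05) and was not called at 25 nM RA (adjusted p = 0.13). *Pcdh19* fell by 0.33 at 1 µM RA (adjusted p = 0.0519).

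In the same list *Tcf15* and *Meox1*, which are expressed in forming somites, rose. *Tcf15* was at 1.75 and 1.57 RPKM in DMSO, 4.16 and 3.98 RPKM at 25 nM RA, and 4.26 and 4.59 RPKM at 1 µM RA (log2 fold changes 1.28 ± 0.15 and 1.40 ± 0.15). *Meox1* was at 0.0967 and 0.107 RPKM in DMSO, and its log2 fold changes were 1.91 ± 0.40 and 2.68 ± 0.38. Both had an adjusted p of 9.77e-06 or less, and *Meox1* did not exceed 0.835 RPKM in any sample. *Pax7* and *Tbx18*, at or under 0.303 and 0.316 RPKM, also rose at 1 µM RA. The log2 fold change was 0.62 ± 0.24 for *Pax7* (adjusted p = 0.0633) and 1.72 ± 0.28 for *Tbx18* (adjusted p = 3.77e-09).

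Of 21 genes of lateral, intermediate and cardiac mesoderm, 16 were tested. At 25 nM RA 1 rose and 5 fell, and at 1 µM RA 2 rose and 8 fell, with a median log2 fold change of -0.21 and -0.19. The count at 25 nM RA depended on the test: it was 2 in place of 6, 1 higher and 1 lower, with DESeq2, with limma on log2(RPKM + 0.1) and by single transcripts, and 3, 1 higher and 2 lower, without DMSO replicate 1, without 25 nM RA replicate 1 or without 25 nM RA replicate 2. By single transcripts 5 genes were called at 1 µM RA, 1 higher and 4 lower. *Pdgfra*, a receptor of mesoderm cells, rose from 9.42 and 9.77 RPKM in DMSO to 11.8 and 11.8 RPKM at 25 nM RA and 15.4 and 15.7 RPKM at 1 µM RA. *Id1*, a target of BMP signalling, fell from 15.8 and 16.5 RPKM to 9.74 and 9.96 RPKM and to 8.71 and 8.60 RPKM. *Isl1* fell by 0.80 and 1.18 on the log2 scale (adjusted p of 0.00308 and 1.71e-06 at the 2 doses) and *Msx1* by 0.41 and 0.47 (adjusted p of 0.0145 and 0.00174). *Gata6* fell by 0.19 and 0.14, with an adjusted p of 0.0312 at 25 nM RA and of 0.099 at 1 µM RA, just under the threshold. *Bmp4* fell by 0.41 and 0.79, with an adjusted p at 25 nM RA of 0.0732, which was 0.125 with the quasi-likelihood test. *Etv2* rose at 1 µM RA by 0.62 ± 0.14 and *Kdr* fell there by 0.30 ± 0.074, and both were not called at 25 nM RA.

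Relatives of the 10 factors by family were mostly at low levels. Of 12 other T-box genes, 4 were tested and 1, *Tbx3*, was called at each dose, where 8.05% and 19.7% of all genes were called. *Tbx3* rose from 0.121 and 0.122 RPKM in DMSO to 0.396 and 0.332 RPKM at 25 nM RA and 0.419 and 0.431 RPKM at 1 µM RA (log2 fold changes 1.58 ± 0.24 and 1.81 ± 0.24). Of 20 LIM-homeobox, forkhead and cofactor genes, 15 were tested, with 1 higher and 2 lower at 25 nM RA and 2 higher and 4 lower at 1 µM RA. With a filter at 50 counts 1 and 3 genes were called at the 2 doses, and by single transcripts 3 at 1 µM RA. *Foxd3* fell by 1.62 and 2.40 on the log2 scale from 0.466 and 0.398 RPKM in DMSO, and *Foxb1* by 0.50 and 0.59. *Lhx3* rose by 0.99 and 0.84 from 0.265 and 0.252 RPKM. At 1 µM RA *Foxq1* rose by 0.49 ± 0.12, *Isl2* fell by 0.93 ± 0.41 (adjusted p = 0.0967), and *Ssbp3*, a cofactor of LIM-homeodomain factors, fell by 0.22 ± 0.051. The partner *Ldb1* had an adjusted p of 0.985 and 0.173 at the 2 doses and a level of 23.7 to 29.2 RPKM.

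**Figure D4:**
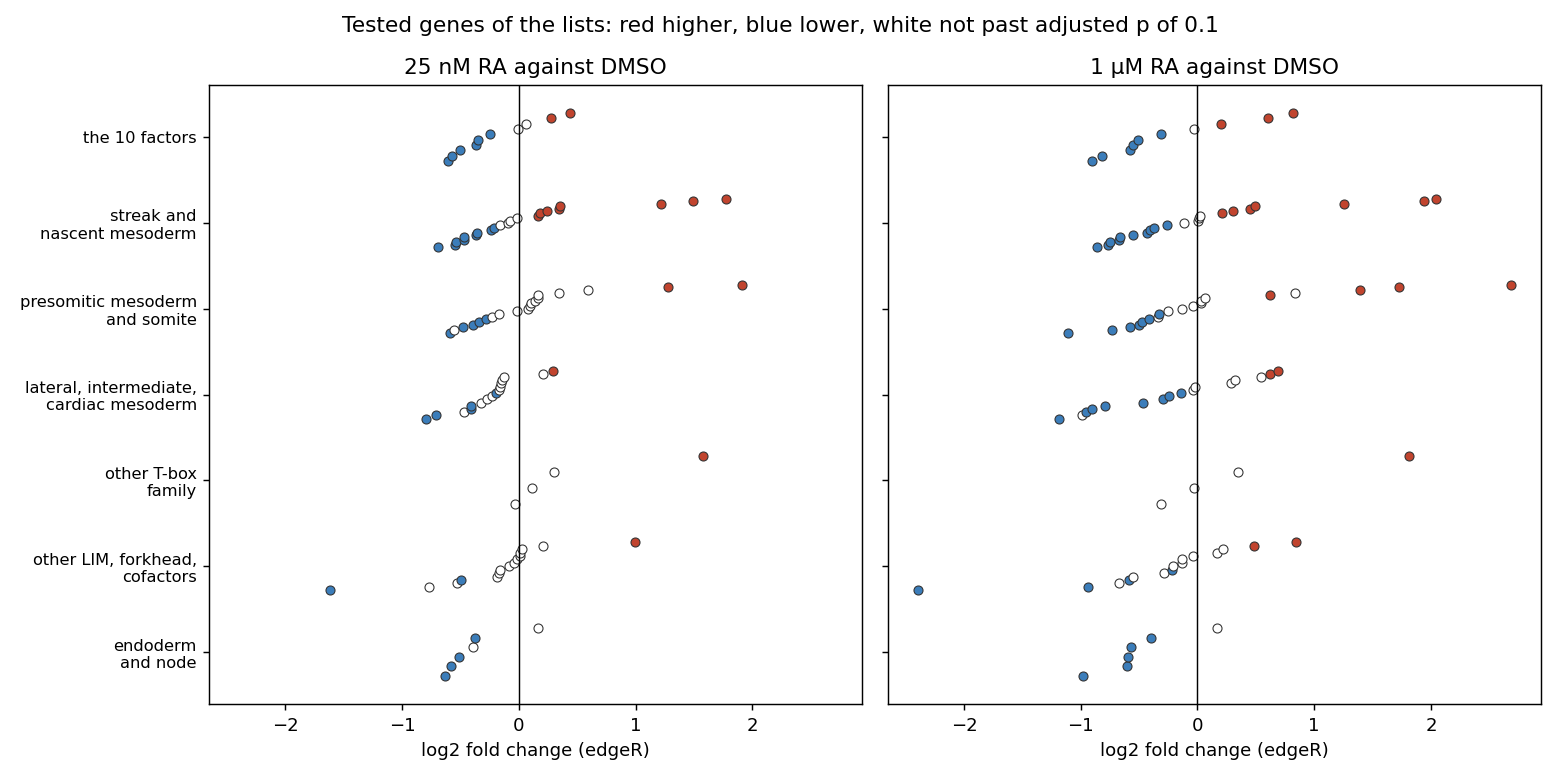
Log2 fold change (horizontal axes) of each tested gene of the lists for each dose of RA against DMSO, with genes that passed the test in red where higher and in blue where lower, and vertical offsets within a list only to separate points. The 10 factors lie between -0.90 and 0.82, and the largest rises of the streak and presomitic lists reach 2.05 and 2.68 at 1 µM RA.

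Markers of other cell types moved along with some of the 10 factors. Of 7 markers of definitive endoderm and node, 6 were tested, and 4 fell at 25 nM RA and 5 at 1 µM RA, with 0 higher at either dose. Of all genes tested, 3.55% and 11.2% were called lower. The 4 calls at 25 nM RA became 3 with DESeq2 and with limma at either pseudocount. *Sox17* fell by 0.58 and 0.98, *Foxa2* by 0.37 and 0.56, *Cer1* by 0.52 and 0.40 and *Foxa1* by 0.64 and 0.60 on the log2 scale, *Noto* fell at 1 µM RA (adjusted p = 0.0984, or 0.131 with the quasi-likelihood test), and *Hhex* was not called (adjusted p of 0.577 and 0.347). At 1 µM RA 3 of the 6 were called with DESeq2, and 3 (*Sox17*, *Foxa2* and *Cer1*) without DMSO replicate 1 or 1 µM RA replicate 2. The summed level of the list was 40.7 to 42.0 RPKM in DMSO, 30.5 to 31.3 RPKM at 25 nM RA and 29.4 to 29.5 RPKM at 1 µM RA. Cells on the way to endoderm also express *Eomes*, *Mixl1* and *Lhx1*, and the part of such cells in the changes of the 10 genes was not tested.

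Of the 5 NMP markers, 4 rose and 1 fell at 25 nM RA, and 3 rose and 1 fell at 1 µM RA. *Cdx2*, *Wnt3a* and *Fgf8* are also in the list of the streak and nascent mesoderm, so that their calls were counted in both lists. The 5 calls at 25 nM RA became 4 with the quasi-likelihood test, 3 with DESeq2, 2 with limma at either pseudocount, and 3 without DMSO replicate 1, 25 nM RA replicate 1 or 25 nM RA replicate 2. *Sox2* rose by 1.56 and 1.64 and *Nkx1-2* by 1.02 and 0.98 on the log2 scale, and *Fgf8* fell by 0.22 and 0.26. *Cdx2* rose at 25 nM RA by 0.24 (adjusted p = 0.0541), and *Wnt3a* rose by 0.18 and 0.21, with an adjusted p at 25 nM RA of 0.0893, which was 0.117 with the quasi-likelihood test. The summed level of the 5 NMP markers was 114 to 116 RPKM in DMSO, 157 to 164 RPKM at 25 nM RA and 151 to 163 RPKM at 1 µM RA. Most of that rise was *Nkx1-2*, with means of 39.1, 79.5 and 77.7 RPKM in the 3 conditions. The 7 fibroblast markers, which would show feeder cells, summed to 5.94 to 6.27, 5.82 to 6.02 and 5.26 to 5.43 RPKM in the 3 conditions, with 3 of 6 tested genes lower at 1 µM RA (*Col1a1*, *Col1a2* and *Postn*), and *Lum* at or under 0.0251 RPKM in all samples. Those 3 calls became 2 with the quasi-likelihood test, without *Postn* (adjusted p = 0.135), 1 with limma, 1 (*Col1a2*) without DMSO replicate 2 or 1 µM RA replicate 2, and 0 with DESeq2 (2 with an unadjusted p under 0.05). The 6 pluripotency markers summed to 459 to 482, 461 to 496 and 478 to 490 RPKM, nearly all of it *Pou5f1*. *Tbx3*, the lowest of them and also in the T-box list above, was the only marker of this list called. The 6 neural markers summed to 5.45 to 5.63, 5.57 to 6.87 and 5.34 to 5.92 RPKM, most of it *Sox3*, with *Olig2* at or under 0.0378 RPKM in all samples and 1 of 4 tested genes, *Hes5*, higher at 1 µM RA (adjusted p = 0.0216). This call was lost without DMSO replicate 1 or 1 µM RA replicate 2, with DESeq2 (0 of 4 called and 0 with an unadjusted p under 0.05), and with limma at either pseudocount (0 of 3 called and 1 with an unadjusted p under 0.05). Over all genes tested 8.05% were called at 25 nM RA and 19.7% at 1 µM RA, so that nothing is read from the single calls of the pluripotency and neural lists. The part of these cell types in the result was not tested.

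Genes close to the 10 factors on the chromosome gave a local background. Within 100 kb there were 41 other genes, of which 35 were tested. At 25 nM RA 3 of them (8.57%) were called, 2 higher and 1 lower, at 1 µM RA 9 (25.7%), 4 higher and 5 lower, and between doses 3 (8.57%), 2 higher and 1 lower. Over all genes the shares were 8.05%, 19.7% and 3.41%, so that the share at 25 nM RA was close to that of all genes, and nothing particular to the neighbours is read from these counts. *Kcns3*, a potassium channel gene 57539 bases from *Msgn1*, rose by 0.40 and 0.61 on the log2 scale while *Msgn1* fell. *Prr18*, 90309 bases from *T*, fell by 1.05 and 1.22 from a mean of 0.581 RPKM in DMSO while *T* was not called. *Lin9*, 2360 bases from *Mixl1*, rose by 0.32 at 1 µM RA (adjusted p = 2.96e-07), the dose at which *Mixl1* rose. The other neighbours called against DMSO were *Slx1b* and *Aldoa*, higher, and *T2*, *Ypel3*, *Gen1* and *Ticrr*, lower, of which *Slx1b* was called at both doses and the rest at 1 µM RA. Between doses the calls were *Lin9* and *Kcns3*, higher, and *Ticrr*, lower. The nearest gene to *Tbx6*, *Ppp4c*, was not called, nor were *Foxf1* and *Foxl1* near *Foxc2*.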

How the data were processed

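RNA-seq was analysed for 6 samples in 3 conditions, 2 per condition, grouped by their labels. The authors sequenced ribosomal RNA-depleted, stranded libraries as single-end reads, aligned them to mm10 with TopHat and estimated abundance by expectation-maximization, and the submitters' processing notes name FastQC 0.11, TopHat2 2.0.13, Bowtie2 2.2.5.0 and Partek 6.6. Whether counting used the strand is not given in the sources used here. The estimated counts of 30352 RefSeq transcripts were deposited without normalization, and the authors derived RPKM values from them by transcript length and library size.

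Estimated counts were summed per gene, rounded and tested in edgeR 4.0.16 (R 4.3.3) with TMM normalization (factors 0.989 to 1.01), filterByExpr and the study's likelihood ratio test, with all 6 samples in a single fit. No fold or RPKM threshold was set. RPKM values carry the SD of duplicates, and log2 fold changes the standard error from edgeR. No permutation test was made, as duplicates cannot give a small p.

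The 10 genes, the gene lists and the motifs were chosen with earlier results of these data known. Of each list, up to 6 genes called at either dose were named by smallest adjusted p, and of marker lists the highest and lowest gene, or the whole list for NMPs. The RA response list as a whole is not reported here, and *Cyp26a1* and *Rarb* stand for it, chosen after their values were seen. Genes named beyond this, to account for a small count or as neighbours or contrasts, were chosen after their values were seen. The alternatives comprised DESeq2 1.42.0, the quasi-likelihood test of edgeR, scaling by total counts or by the size factors of DESeq2, other filters, the 4 samples compared, a replicate block, an adjusted p under 0.05, single transcripts, limma 3.58.1 on log2(RPKM + 1) or log2(RPKM + 0.1) for genes of mean RPKM 0.1 or more, and leaving out each sample. The test was tried on simulated data. Gene models are from GENCODE (GRCm38) and promoters from RefSeq (GRCm38.p6). Figures were drawn with Python 3.11.15 and matplotlib 3.10.9.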

Additional observations from a re-analysis of the deposited data

How the results depend on the processing

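Of 509 recalculated log2 fold changes of the 10 genes, 478 kept their direction and their side of the threshold, 25 lost a call, 3 gained a call and 3 changed sign. The changes of sign were of values near 0: *T* at 25 nM RA, which ranged from -0.016 to 0.0085 with a sample left out and was above 0 without DMSO replicate 1, and *Mesp1* between doses, which ranged from -0.064 to 0.047 and was above 0 without 25 nM RA replicate 1 (0.030) or 1 µM RA replicate 1. The number of the 10 genes called stayed between 6 and 8 at 25 nM RA and at 9 at 1 µM RA under all alternatives. In the fit of single transcripts *Eomes* entered this count if either of its transcripts passed, at 25 nM RA only NM_001164789 (adjusted p = 0.0356). The recalculated fold changes of *Eomes* there are those of NM_010136, which was not called at 25 nM RA (adjusted p = 0.15). Between doses 3 genes were called, against 0 with limma at either pseudocount (6 with an unadjusted p under 0.05) and 1 in the fit of single transcripts, and 1 to 3 when a sample was left out, with the low of 1 without 25 nM RA replicate 1.

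Counts over all genes moved more, and the cause was not tested. At 25 nM RA 1219 genes were called, against 567 with DESeq2, 623 and 631 with limma on log2(RPKM + 1) and log2(RPKM + 0.1), 744 by single transcripts, and 799 to 1345 when a sample was left out (800 without DMSO replicate 2 and 799 without 25 nM RA replicate 2). At 1 µM RA 2983 were called, against 1594 with DESeq2, 1639 by single transcripts and 1922 to 2838 with a sample left out (1960 and 1922 without DMSO replicate 1 and 2). Between doses 516 were called, against 336 with the quasi-likelihood test, 158 with DESeq2, 18 and 20 with limma, 340 at an adjusted p under 0.05, and 205 to 577 with a sample left out (205 and 247 without 25 nM RA replicate 1 and 2).

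Samples of the same replicate number did not deviate together, with correlations of -0.041, 0.048 and -0.062 between the conditions over 15143 genes. With the replicate block 8, 9 and 2 of the 10 genes were called at 25 nM RA, at 1 µM RA and between doses, the call lost being that of *Foxc2* between doses (adjusted p = 0.108), and 1138, 2756 and 423 of all genes. Calls of *Mesp2* and *Foxc2* rest on 89 to 195 counts per sample, so that small changes of these genes were not detectable at this depth.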
